A study of Mus musculus with 5 samples.

Results

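WNT ligands are secreted lipid-modified glycoproteins, and 10 of their genes (Wnt3, Wnt3a, Wnt4, Wnt5a, Wnt6, Wnt7a, Wnt7b, Wnt10a, Wnt10b and Wnt16) were followed in hair follicle stem cells in which Polycomb repressive complex 1 (PRC1) was or was not disrupted by induction. They were taken by symbol from a fixed list of ligands known from skin and hair follicle, and all 10 were found among the 30840 features of the table. RNA was sequenced in 5 samples, 2 named Control and 3 named PRC1 i2KO. Every mouse was Ring1a-/- and Ring1b flox/flox and had 1% RU-486 on the skin each day for 10 days from postnatal day 50, so the controls also lacked Ring1a. The PRC1 i2KO mice carried K15-CrePR1 in addition, a Cre recombinase made in keratin 15-expressing cells and switched on by RU-486, which removes the loxP-flanked part of Ring1b (gene Rnf2). The groups therefore differ in the transgene as well as in the deletion, and cells that escaped the deletion keep Ring1b. The share of such cells was not measured. At postnatal day 70, cells with EpCAM, CD34 and high α6-integrin but no Sca1 were sorted, 50000 per sample. Whether the samples of a group came from separate mice is not stated, so p-values reflect only sample-to-sample spread, part of which may be technical.

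A WNT protein is acylated by Porcupine, carried to the surface by Wntless and bound by a Frizzled receptor with LRP5 or LRP6. In the canonical branch this stabilises β-catenin, which acts with TCF/LEF factors in the nucleus; Wnt5a is the best known ligand of the β-catenin-independent branch. In the hair follicle, WNT signals drive the resting bulge and hair germ into the growth phase, and PRC1, which ubiquitinates histone H2A, represses many developmental genes with CpG-rich promoters.

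Libraries held between 11626313 counts (Control 3) and 43307892 counts (PRC1 i2KO 2), and values are in CPM, counts scaled to a common depth, on library sizes scaled by TMM, a normalization for library composition, where 1 count stood for 0.0203 to 0.0793 CPM. All 9 bulge markers (Cd34, Krt15, Lhx2, Sox9, Nfatc1, Tcf7l1, Itga6, Lgr5 and Epcam) were detected in every library, with Krt15 at 3418 to 5076 CPM. Cd34, used in the sort, was at 477 and 326 CPM in Control 2 and 3, against 298, 292 and 164 CPM in PRC1 i2KO 1, 2 and 3. Ly6a, which encodes the excluded Sca1, was at 1.62 and 0.793 CPM against 3.12, 4.78 and 4.93 CPM in the same order. The other sort genes, Itga6 and Epcam, overlapped between the groups. Rnf2 counts did not separate the groups (27.7 and 37.5 CPM against 33.1 to 39.9 CPM), but its level in TPM (the authors' transcript abundance, scaled for depth and transcript length) was 25.1 and 24.4 in the controls and 11.7 to 16.8 in PRC1 i2KO. Mitochondrial ribosomal RNA took 16.7% and 22.6% of control counts and 29.7%, 21.4% and 32.0% of those of PRC1 i2KO 1, 2 and 3.

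Transcripts of 4 ligand genes, Wnt10a, Wnt6, Wnt5a and Wnt7b, had higher CPM in every one of the PRC1 i2KO libraries than in either control, by 2.11-fold to 4.08-fold on average, while the most abundant ligand gene, Wnt4, was at 45.4 ± 1.32 CPM (SD, n = 2) in Control and 47.7 ± 8.28 CPM (SD, n = 3) in PRC1 i2KO. None of the 10 passed the test over all genes by edgeR's quasi-likelihood method with Benjamini-Hochberg adjustment: 0 members were called higher and 0 lower at an adjusted p under 0.05, where 0.126% of the 22181 genes tested were called higher and 0.0% lower. At an unadjusted p under 0.05, these 4 members were higher and 0 lower, against 7.43% and 3.51% of all genes tested. DESeq2's Wald test without the low-count filter called 3 members higher, Wnt10a (adjusted p = 0.000324), Wnt6 (0.0248) and Wnt5a (0.0460), where 3.57% of the 21128 genes with an adjusted p were called higher and 0.786% lower. On the genes that passed the filter, DESeq2 called Wnt10a (adjusted p = 0.000505) and Wnt6 (0.0333) but not Wnt5a (0.0526), where 3.48% of 20458 genes were called higher and 0.714% lower. Of the 10 members, 8 had enough counts to be tested, each of them already in both controls, and all 8 had a positive log2 fold change with a median of 1.64, beside a median of 0.0053 over all genes tested. Wnt7a and Wnt16 were too low to be tested. In 4 of the 8 tested members every PRC1 i2KO library lay above both controls in CPM, as in 14.6% of all tested genes; in 0 members did every one lie below, as in 15.3% of genes. On the TPM scale 2 of the 8, Wnt6 and Wnt10a, kept that order (7.01% of all genes), and 0 lay below (23.0%). With 2 samples against 3 there are 10 ways to split the libraries. An exact permutation test of a single gene, with the smaller tail multiplied by 2, therefore cannot give a p below 0.2. Of the 4 members with an unadjusted p under 0.05, Wnt10a alone kept it without Control 2, Wnt10a and Wnt6 kept it without PRC1 i2KO 1 (where Wnt3 gained it), and Wnt10a, Wnt6 and Wnt5a kept it without PRC1 i2KO 3; all 4 kept it without Control 3 or PRC1 i2KO 2. In bulk RNA, more cells that express a gene and more RNA per cell cannot be told apart.

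**Figure D1:**
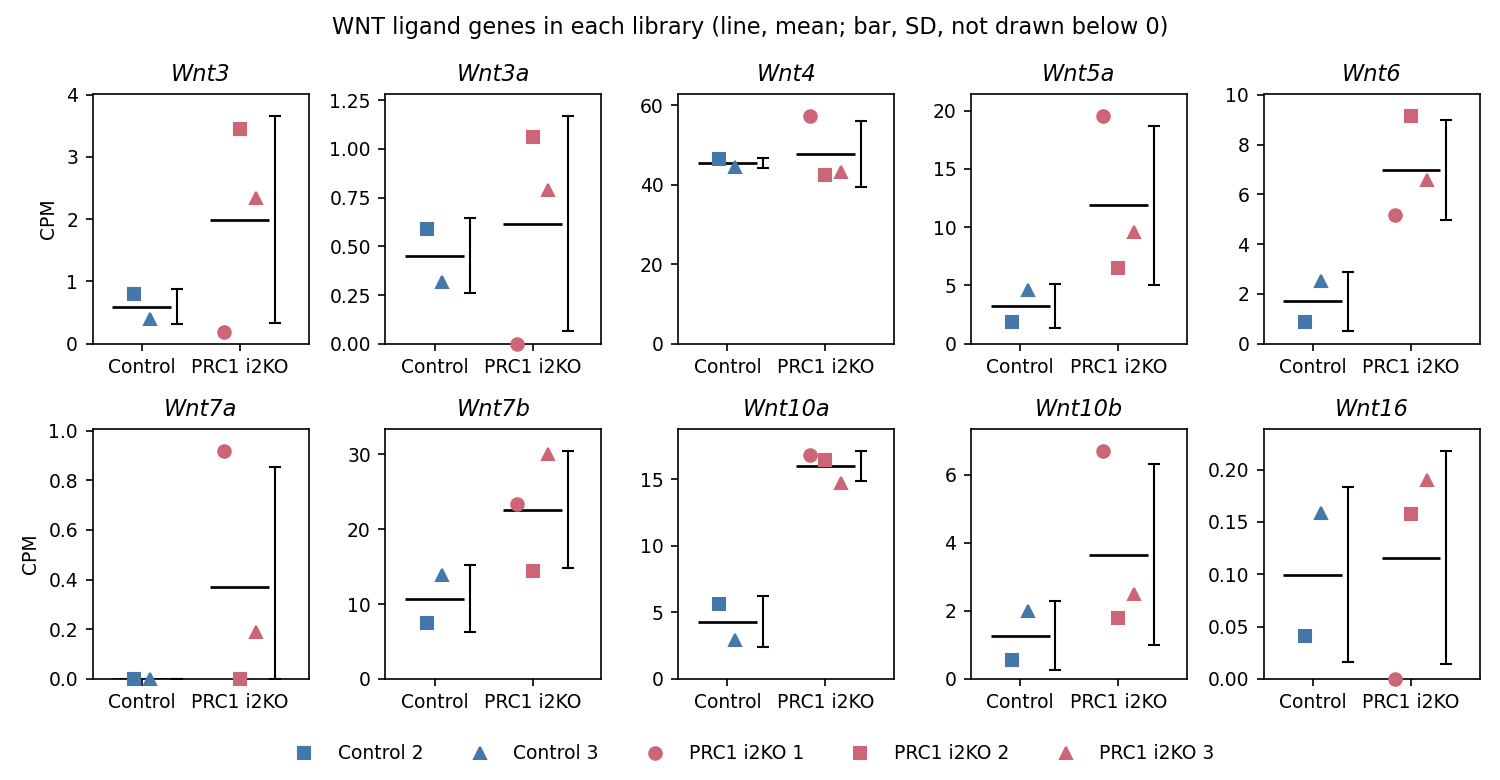
CPM of each of the 10 WNT ligand genes in 2 Control (blue) and 3 PRC1 i2KO (red) libraries, with the group mean as a line and the SD as a bar; each panel has its own axis from 0. The 3 PRC1 i2KO libraries sit above both controls for Wnt5a, Wnt6, Wnt7b and Wnt10a, while the groups overlap for the other 6 genes.

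Wnt4, which is required for kidney tubule and female reproductive tract development, was the leading ligand transcript. Its level was 13.6 and 9.68 TPM in Control 2 and 3 and 10.6, 10.1 and 8.55 TPM in PRC1 i2KO 1, 2 and 3. Both groups overlapped, and the log2 fold change in counts was 0.07 ± 0.23 (SE; edgeR adjusted p = 0.952). The sign turned to -0.23 on the log2(TPM + 1) scale, where the median of all genes was -0.19. Compared over all 5 libraries, 5 genes followed Wnt4 most closely among 16933 genes with a mean of at least 1 CPM: Nfyc, a subunit of a CCAAT-binding factor, Prpf8, a core spliceosome protein, Stt3a, a catalytic subunit of the oligosaccharyltransferase, Tmem170b and Natd1. Likeness was the Euclidean distance between mean-centred log2 CPM profiles, which was 0.0483 to 0.0963 for these genes and 0.964 for the median gene. The genes were picked as the nearest over only 5 libraries, so small distances follow from the choice. A link between them and Wnt4 was not tested.

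Wnt10a, an epidermal and placode ligand whose human counterpart is mutated in ectodermal dysplasias, had the smallest p of the members. It was at 5.66 and 2.94 CPM in Control 2 and 3 and at 16.8, 16.4 and 14.7 CPM in PRC1 i2KO 1, 2 and 3. The 3 PRC1 i2KO values lay close together (SD 1.11 CPM, n = 3), and their mean was 3.72 times that of the controls. The log2 fold change was 1.87 ± 0.43 (SE; edgeR unadjusted p = 0.00182, adjusted p = 0.177). In TPM it was at 2.93 and 1.12 in the controls and at 5.43, 6.82 and 5.10 in PRC1 i2KO, again without overlap. The log2 fold change was 1.51 to 2.45 with any 1 library left out.

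Wnt6, another epithelial ligand, lies next to Wnt10a on chromosome 1 in the RefSeq gene order of GRCm38.p6. Its counts were 43 and 32 in the controls and 113, 405 and 208 in PRC1 i2KO 1, 2 and 3. This corresponded to 0.873 and 2.54 CPM against 5.18, 9.14 and 6.58 CPM, with no overlap and a highest value in PRC1 i2KO 2. The log2 fold change was 2.07 ± 0.68 (SE; edgeR unadjusted p = 0.0142, adjusted p = 0.314), and it was 3.003 without Control 3 and 1.46 without Control 2. In TPM it was at 0.546 and 1.17 in the controls and at 2.02, 4.58 and 2.75 in PRC1 i2KO. The coding genes on either side of this pair were close to 0: Prkag3 stood at 0 to 0.305 CPM in all libraries, and Cdk5r2, an activator of cyclin-dependent kinase 5, had no count in the controls or PRC1 i2KO 1 and was at 1.06 and 0.696 CPM in PRC1 i2KO 2 and 3.

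Wnt10b, a canonical ligand that promotes hair follicle growth, did not separate the groups. It was at 0.548 and 1.98 CPM in Control 2 and 3, against 6.69, 1.78 and 2.50 CPM in PRC1 i2KO 1, 2 and 3. PRC1 i2KO 1 was high, PRC1 i2KO 2 lay between the controls, and the log2 fold change was 1.56 ± 0.91 (SE; edgeR adjusted p = 0.590), with 0.79 without PRC1 i2KO 1, 0.88 without Control 2 and 2.73 without Control 3.

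Wnt3 and Wnt3a, canonical ligands, shared an uneven pattern. Wnt3, a ligand of the interfollicular and follicular epithelium, gathered 39 and 5 counts in Control 2 and 3, against 4, 153 and 74 in PRC1 i2KO 1, 2 and 3. In CPM this was 0.792 and 0.397 against 0.183, 3.45 and 2.34, so PRC1 i2KO 2 and 3 lay above both controls and PRC1 i2KO 1 below them. The 95% counting interval for PRC1 i2KO 1, 0.0499 to 0.469 CPM, includes the value of Control 3 but not that of Control 2. Wnt3a was at 0.589 and 0.317 CPM in Control 2 and 3, against 0, 1.06 and 0.791 CPM in PRC1 i2KO 1, 2 and 3. Its count of 0 in PRC1 i2KO 1 allows up to 3 counts, or 0.137 CPM. Neither gene separated the groups, with log2 fold changes of 1.71 ± 1.19 for Wnt3 and 0.43 ± 1.49 for Wnt3a (SE; edgeR adjusted p = 0.661 and 0.953), and with 1 library left out they ran from 1.06 to 2.33 for Wnt3 and from -0.20 (without PRC1 i2KO 2) to 1.00 (without PRC1 i2KO 1) for Wnt3a. Next to Wnt3a on chromosome 11 lies Wnt9a, which was at 3.51 and 4.13 CPM in Control 2 and 3, against 0.917, 0.632 and 3.005 CPM in PRC1 i2KO (log2 fold change -1.33 ± 0.82, adjusted p = 0.610).

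Wnt7b, a canonical ligand made by bulge cells, was the next most abundant ligand transcript after Wnt4. Its values were 7.53 and 13.9 CPM in Control 2 and 3, against 23.3, 14.5 and 30.0 CPM in PRC1 i2KO 1, 2 and 3. The groups did not overlap in CPM, but PRC1 i2KO 2 was close to Control 3. The log2 fold change was 1.09 ± 0.42 (SE; edgeR unadjusted p = 0.0300, adjusted p = 0.397), and it was 0.70 without Control 2 and 1.59 without Control 3. In TPM the groups overlapped, with 3.05 and 4.67 in the controls and 6.62, 4.62 and 8.05 in PRC1 i2KO. An antisense gene, AU022754, overlaps Wnt7b and was at 1.22 and 3.17 CPM in Control 2 and 3, against 6.92, 2.66 and 4.21 CPM in PRC1 i2KO. The sources used here do not say whether counting was strand-aware, so reads of Wnt7b and this partner may not be fully separated. Wnt5a and Wnt6 also have antisense partners, Gm2670 (0.142 to 1.03 CPM) and Gm29539 (0.0633 CPM at most).

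Wnt7a, which sets dorsal identity in the limb, had no count in either control. It had 20, 0 and 6 counts in PRC1 i2KO 1, 2 and 3, or 0.917, 0 and 0.190 CPM. The floor of 3 counts over both controls was 0.0485 CPM. PRC1 i2KO 2 held no count either, which allows up to 0.0677 CPM, so detection was limited to 2 of 3 libraries. Wnt16, a ligand known from bone and bulge, gathered 2 counts in each control, against 0, 7 and 6 in PRC1 i2KO, at most 0.190 CPM in any library. A difference in Wnt16 was not detectable at this depth.

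Wnt5a was higher in counts but not in TPM. Counts gave 1.91 and 4.60 CPM in Control 2 and 3, against 19.5, 6.50 and 9.62 CPM in PRC1 i2KO 1, 2 and 3. All PRC1 i2KO libraries lay above both controls, with a log2 fold change of 1.89 ± 0.64 (SE; edgeR unadjusted p = 0.0165, adjusted p = 0.326). It was 2.64 without Control 3, 1.37 without Control 2 and 1.33 without PRC1 i2KO 1. In TPM the same gene was at 0.817 and 1.97 in the controls and at 2.13, 0.914 and 1.40 in PRC1 i2KO. These groups overlapped, and limma on log2(TPM + 1) gave a log2 fold change of 0.07 (adjusted p = 0.961).

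The gap between both scales of Wnt5a lay in the transcript length that the deposited values imply. A gene's count divided by its TPM is proportional to the abundance-weighted mean length of its transcripts, and it was put on a scale of bases with protein-coding genes that have a single annotated transcript of at least 2000 bases and 100 counts (406 to 652 genes per library, 90% of them within 0.971 to 1.04 times the scale). For Wnt5a the implied length was 2905 and 2149 bases in Control 2 and 3 and 7166, 7109 and 5731 bases in PRC1 i2KO 1, 2 and 3. The groups did not overlap, and the PRC1 i2KO mean was 2.64 times the control mean. GENCODE M21 lists 6 Wnt5a transcripts, of which 2 code for protein, one of 7010 bases with a 3′ untranslated region of 4511 bases and one of 3650 bases with 2497; the longest of the noncoding models has 2147 bases. PRC1 i2KO 1 and 2 were near the longest coding model, PRC1 i2KO 3 lay between both coding models, and the control values lay between that noncoding model and the shorter coding one. These lengths rest on 94 and 58 control counts and on the authors' assignment of reads to transcripts, which was not examined here. Among 11087 tested genes with several annotated transcripts and at least 20 counts in each library, every PRC1 i2KO library was above both controls in 20.8%, and every one was at least 2 times the control mean in 18 genes (0.162%), Wnt5a among them. The 2-fold limit was chosen after the values were seen.

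**Figure D2:**
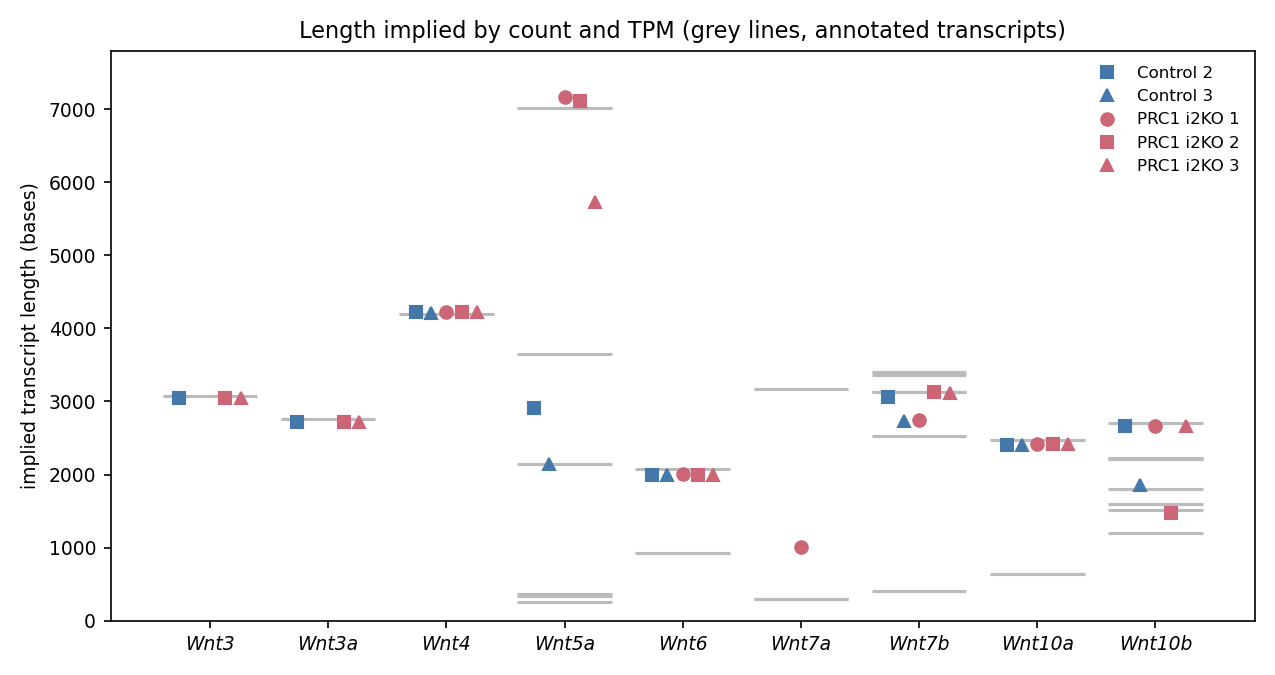
Transcript length in bases implied by count and TPM for each ligand gene with at least 20 counts in a library (points, by library) beside the annotated GENCODE M21 transcript lengths (grey lines). Wnt5a stands at 2149 and 2905 bases in the controls and at 5731 to 7166 bases in PRC1 i2KO, while Wnt4, Wnt6 and Wnt10a give nearly the same length in all 5 libraries.

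The other ligands gave steadier lengths. Wnt4 was at 4217 to 4228 bases, Wnt10a at 2406 to 2417 bases and Wnt6 at 1989 to 2002 bases in all 5 libraries. Wnt10b varied inside both groups, at 2662 and 1857 bases in the controls and 2669, 1478 and 2666 bases in PRC1 i2KO 1, 2 and 3, on 25 to 146 counts. Wnt7b lay between 2726 and 3135 bases, and its groups overlapped.

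Per length, the ligand transcripts summed to 21.9 and 19.9 TPM in Control 2 and 3 and to 29.5, 29.9 and 27.6 TPM in PRC1 i2KO 1, 2 and 3. Wnt4 held 62.4% and 48.7% of this sum in the controls and 35.9%, 33.7% and 30.9% in PRC1 i2KO. The remaining 9 genes summed to 8.22 and 10.2 TPM in the controls and to 18.9, 19.8 and 19.1 TPM in PRC1 i2KO; leaving out Wnt4 was decided after its values were seen, and neither sum was tested. Wnt10a held 13.4% and 5.64% of the ligand sum in the controls and 18.4%, 22.8% and 18.5% in PRC1 i2KO. The share of Wnt6 was also higher in PRC1 i2KO, at 2.50% and 5.90% against 6.85%, 15.3% and 9.97%. Between the controls it was higher in Control 3, where that of Wnt10a was lower. The share of Wnt7b overlapped between groups, at 14.0% and 23.5% against 22.5%, 15.5% and 29.2%.

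**Figure D3:**
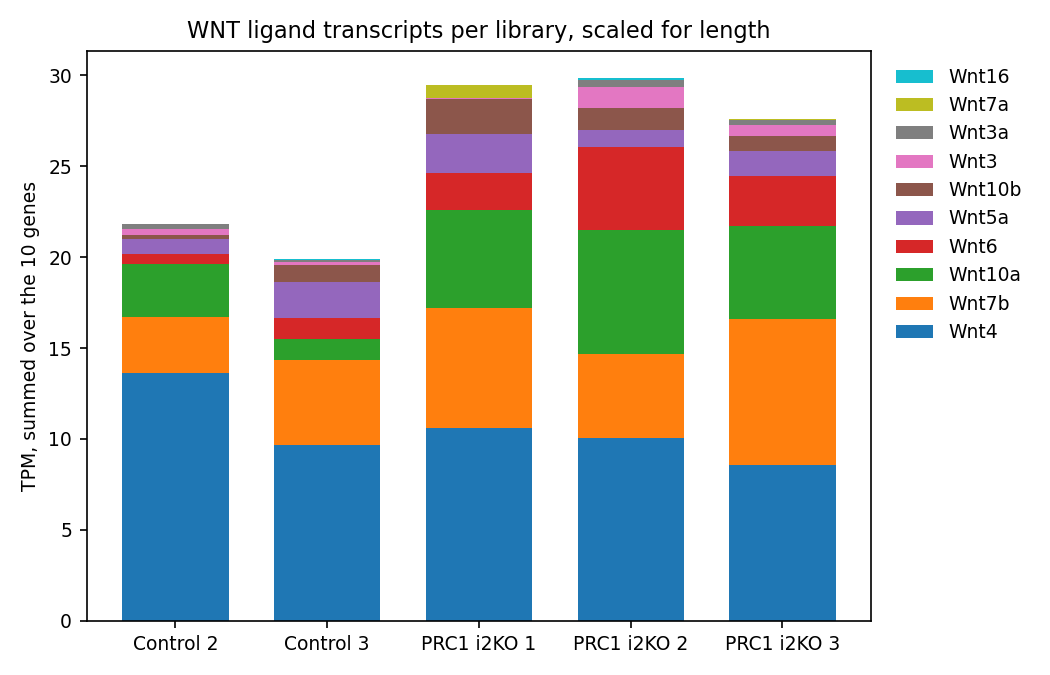
TPM of the 10 WNT ligand genes stacked for each of the 5 libraries. Wnt4 (blue, bottom) is at 8.55 to 13.6 TPM in every library, while Wnt10a (green) and Wnt6 (red) are thicker in the 3 PRC1 i2KO libraries, whose stacks reach 27.6 to 29.9 TPM.

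In the order of mean TPM, Wnt4, Wnt7b and Wnt10a led the family in both groups. In Control, Wnt4 and Wnt7b did not overlap with each other or with the next gene, whereas the ranges from Wnt10a (1.12 to 2.93 TPM) to Wnt10b (0.256 to 0.980 TPM) overlapped from neighbour to neighbour, other family genes included. In PRC1 i2KO, Wnt7b (4.62 to 8.05 TPM) and Wnt10a (5.10 to 6.82 TPM) overlapped, and both lay above Wnt6 (2.02 to 4.58 TPM). Below these, the ranges of neighbours from Wnt6 down to Wnt16 overlapped. Of the 9 other WNT family genes listed, 6 were in the table and 5 could be tested, with 0 called. Of these, 2 had a positive log2 fold change, and the median was -0.85. Wnt11, a β-catenin-independent ligand, was at 1.58 and 0.238 CPM in Control 2 and 3, against 4.81, 1.60 and 11.0 CPM in PRC1 i2KO (2.59 ± 1.04, SE; edgeR unadjusted p = 0.0348, adjusted p = 0.416). Wnt2b was at 1.58 and 1.75 CPM in Control 2 and 3 and was lower in all 3 PRC1 i2KO libraries, at 0.687, 0.699 and 1.04 CPM (adjusted p = 0.714), as was Wnt9a. Wnt2 had 22 counts in PRC1 i2KO 1 and none elsewhere.

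**Figure D4:**
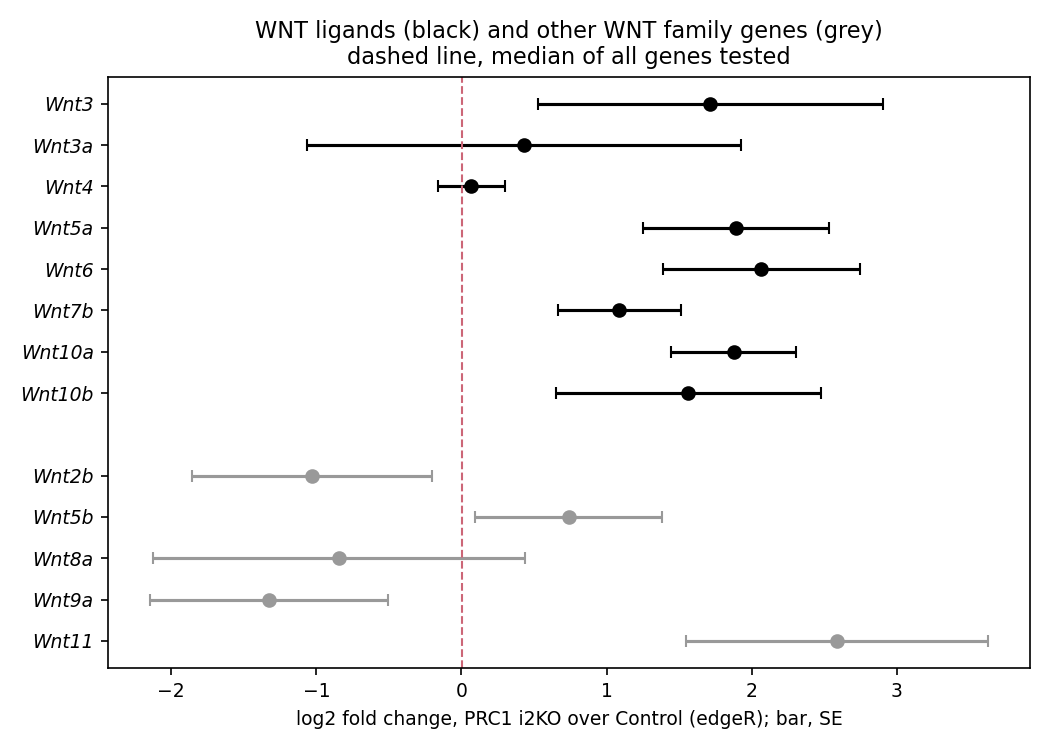
Log2 fold change of PRC1 i2KO over Control by edgeR, with SE, for the 8 tested ligand genes (black) and 5 other WNT family genes (grey); the dashed line is the median of all genes tested. All black points lie above 0, from 0.07 (Wnt4) to 2.07 (Wnt6), and the grey ones run from -1.33 (Wnt9a) to 2.59 (Wnt11).

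Promoter sequence was available for 7 of the 10 members in RefSeq (GRCm38.p6), as the 250 bases before the annotated start. It was missing for Wnt5a, Wnt7b and Wnt10a, each of which had higher CPM in every PRC1 i2KO library than in either control. The CpG content of the 7 is shown because PRC1 is known to act at CpG-rich promoters. The ratio of observed to expected CpG was above 0.6 in 5 of the 7 (Wnt3, Wnt3a, Wnt4, Wnt6 and Wnt7a) and in 34.0% of all 32851 promoters in that table. It was 1.00 for Wnt4, which was at a similar level in both groups, 0.905 for Wnt7a, which had no control count, and 0.761 for Wnt6. Wnt10b (0.522) and Wnt16 (0.420) were lower, beside a median of 0.373 for all promoters. The TCF/LEF core words CTTTGAA and CTTTGAT, searched on both strands, were in 0 of the 7 and in 4.46% and 3.21% of all promoters. Of the sequences that follow, Wnt6 is the member with the largest fold change, Wnt7a the one with no control count, and Wnt10b and Wnt16 those with the fewest CpG; CpG pairs are in capitals, 28, 34, 14 and 9 of them. They lie at chr1:74771642-74771891 (plus strand, Wnt6), chr6:91411354-91411603 (minus strand, Wnt7a), chr15:98778151-98778400 (minus strand, Wnt10b) and chr6:22287977-22288226 (plus strand, Wnt16).
Wnt6: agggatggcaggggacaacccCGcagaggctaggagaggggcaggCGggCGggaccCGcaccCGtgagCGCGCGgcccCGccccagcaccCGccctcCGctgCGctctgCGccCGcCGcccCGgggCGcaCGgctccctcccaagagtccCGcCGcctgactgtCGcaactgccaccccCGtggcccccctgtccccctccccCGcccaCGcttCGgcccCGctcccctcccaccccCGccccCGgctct
Wnt7a: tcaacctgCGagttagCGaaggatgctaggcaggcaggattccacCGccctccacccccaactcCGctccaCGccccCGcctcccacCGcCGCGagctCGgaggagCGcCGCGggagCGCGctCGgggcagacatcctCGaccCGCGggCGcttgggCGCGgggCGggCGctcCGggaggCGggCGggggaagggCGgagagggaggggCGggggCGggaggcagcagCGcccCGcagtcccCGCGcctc
Wnt10b: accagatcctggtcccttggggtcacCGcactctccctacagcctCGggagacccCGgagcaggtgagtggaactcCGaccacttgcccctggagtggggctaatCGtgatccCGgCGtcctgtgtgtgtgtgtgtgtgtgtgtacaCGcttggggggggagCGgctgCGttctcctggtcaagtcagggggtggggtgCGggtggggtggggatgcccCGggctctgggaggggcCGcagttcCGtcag
Wnt16: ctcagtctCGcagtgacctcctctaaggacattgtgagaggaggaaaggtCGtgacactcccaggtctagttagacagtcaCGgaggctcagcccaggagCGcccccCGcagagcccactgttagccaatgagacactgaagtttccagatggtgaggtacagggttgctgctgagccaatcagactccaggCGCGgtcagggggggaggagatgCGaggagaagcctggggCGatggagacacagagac

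Genes that act on or after the ligands were read from the same test over all genes, and 0 members of any of the 5 lists were called. For secretion and ligand modification, 1 of 9 tested genes was higher and 0 lower at an unadjusted p under 0.05, against 7.43% and 3.51% of all genes tested. It was Snx3, which recycles Wntless, at 27.8 and 22.1 CPM in Control 2 and 3, against 50.3, 30.8 and 43.9 CPM in PRC1 i2KO 1, 2 and 3 (adjusted p = 0.399). Porcn, which acylates WNT proteins, was at 4.99 and 8.17 CPM against 10.5, 16.5 and 8.89 CPM (adjusted p = 0.547). Vps26a, a retromer subunit, gave 0.24 on the log2 scale (adjusted p = 0.697). Notum, the deacylase that inactivates ligands, named after its values were seen, had no control count and was at 0.275, 0.158 and 2.44 CPM in PRC1 i2KO.

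Of 16 receptor and co-receptor genes 0 were higher and 3 lower at an unadjusted p under 0.05, with a median log2 fold change of -0.17. Over all genes tested, 7.43% were higher and 3.51% lower at that p. Fzd3, a Frizzled receptor, was at 364 and 330 CPM in Control 2 and 3, against 228, 239 and 186 CPM in PRC1 i2KO (adjusted p = 0.210). Fzd2 was at 205 and 235 CPM against 180, 89.7 and 126 CPM (adjusted p = 0.360), and the co-receptor gene Ptk7 had an adjusted p of 0.387. In the R-spondin axis, which amplifies WNT signals, 1 gene was higher and 1 lower of 6 tested. Rspo1 was at 1.40 and 0.397 CPM in Control 2 and 3, against 4.03, 4.13 and 4.27 CPM in PRC1 i2KO (adjusted p = 0.352), and the receptor gene Lgr5 was lower, at 449 and 471 CPM against 322, 315 and 382 CPM (adjusted p = 0.359). Znrf3, a ligase that removes Frizzled receptors, gave 0.37 on the log2 scale (adjusted p = 0.649).

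Of 11 tested inhibitor genes 1 was higher and 0 lower at that p, against 7.43% and 3.51% of all genes tested. The higher gene was Dkkl1, at 1.02 and 0.476 CPM against 2.25, 4.65 and 3.38 CPM (adjusted p = 0.362). Sfrp1, a secreted Frizzled-related inhibitor, was at 1625 and 1409 CPM in Control 2 and 3, against 2200, 1782 and 1778 CPM in PRC1 i2KO (adjusted p = 0.473), and Sostdc1, an LRP-binding inhibitor, gave -0.26 on the log2 scale (adjusted p = 0.621). Of 12 nuclear effectors and targets 3 were higher and 0 lower at that p, namely Lef1, Ccnd1 and Twist1. Twist1, with a mean under 1 CPM, had no control count and 0, 23 and 13 counts in PRC1 i2KO 1, 2 and 3. It therefore passed the low-count filter only through PRC1 i2KO libraries. Lef1, the TCF/LEF factor of activated hair progenitors, was at 14.2 and 28.3 CPM in Control 2 and 3, against 64.8, 45.7 and 66.0 CPM in PRC1 i2KO (log2 fold change 1.48 ± 0.34, SE; adjusted p = 0.177). Ccnd1, which encodes cyclin D1, was at 108 and 105 CPM against 206, 153 and 146 CPM (adjusted p = 0.284), and Tcf7 gave 0.57 on the log2 scale (adjusted p = 0.570). Axin2, a widely used readout of β-catenin signalling that was chosen for mention after its values were seen, was at 28.2 and 58.9 CPM against 42.3, 35.7 and 41.7 CPM, and its groups overlapped (adjusted p = 0.933).

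Summed markers of several other cell types also differed between the libraries. The 10 fibroblast and dermal papilla markers summed to 32.8 to 35.3 CPM in the controls and 75.6 to 88.0 CPM in PRC1 i2KO. Within that list 4 of 7 tested genes were higher at an unadjusted p under 0.05, as were 7.43% of all genes tested. Pdgfra was at 3.37 and 2.22 CPM against 32.5, 25.4 and 16.005 CPM (adjusted p = 0.0502). Col3a1, a defining fibroblast collagen, was at 0 in 4 libraries and at 0.271 CPM in PRC1 i2KO 2, and Lum was at 0.159 CPM at most. The 8 interfollicular epidermis markers summed to 815 and 786 CPM in the controls and to 803, 2548 and 1348 CPM in PRC1 i2KO 1, 2 and 3, and 4 of 8 were higher at an unadjusted p under 0.05. The 7 upper follicle and sebaceous gland markers summed to 204 and 223 CPM against 507, 272 and 306 CPM. Mitosis markers, 8 in all, summed to 19.5 and 55.1 CPM in the controls and to 271, 57.7 and 610 CPM in PRC1 i2KO, of which 6 were higher at that p. The 9 hair germ and matrix markers summed to 246 and 317 CPM against 404, 379 and 347 CPM. Immune markers summed to 5.16 and 8.01 CPM against 9.93 to 13.8 CPM, melanocyte markers to 205 and 160 CPM against 82.8 to 127 CPM, endothelial and mural markers to 13.01 to 23.2 CPM and Schwann cell markers to 9.20 to 15.7 CPM in all libraries. The melanocyte sum mostly followed 1 gene, Mitf, at 196 and 153 CPM in Control 2 and 3, against 102, 123 and 75.9 CPM in PRC1 i2KO. Pmel, Dct and Tyr were at 4.05 CPM at most. The part of any of these cells, or of mitochondrial RNA, in the ligand values was not tested.

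**Figure D5:**
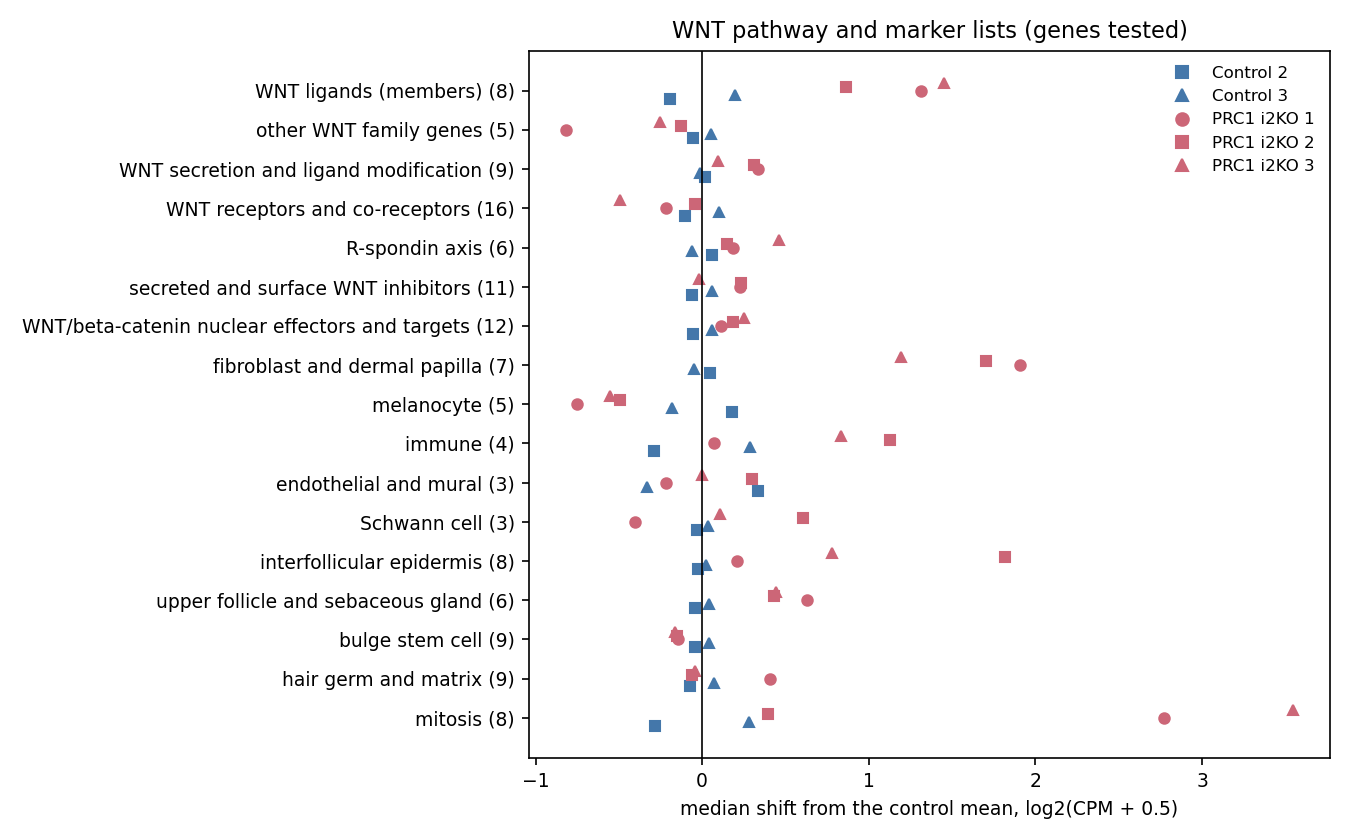
Median shift from the control mean, in log2(CPM + 0.5), of the tested genes of each WNT pathway and marker list (number tested in brackets), by library. The 8 ligand genes shift by 1.31, 0.86 and 1.45 in PRC1 i2KO 1, 2 and 3. In the same libraries, receptors, inhibitors and nuclear effectors stay between -0.49 and 0.25. The R-spondin axis lies at 0.15 to 0.46 and the other WNT family genes at -0.82 to -0.12. Large shifts are not particular to the ligands. Fibroblast and dermal papilla markers shift by 1.19 to 1.91, mitosis markers by 0.398 to 3.55 and interfollicular epidermis markers by 0.21 to 1.82. Melanocyte markers shift down, by -0.75 to -0.49.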

How the data were processed

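Per the labels' protocols, polyadenylated RNA from 50 ng of total RNA was made into Illumina libraries. Build mm39 and the tools RSEM 1.3.3, STAR 2.7.9a and DESeq2 1.38.2 are listed, without roles, per the submitters' processing notes. The authors deposited, per the file headers, a count and a TPM per gene and sample; TPM divides by transcript length. The expected counts deposited by the authors are estimated counts per gene, not scaled for depth (60.4% not whole), and were rounded here.

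The test over all genes was that of edgeR 4.0.16 under R 4.3.3 (filterByExpr, TMM, quasi-likelihood F test, group only, all genes, adjusted p threshold 0.05) after a trial on simulated data. Alternatives used DESeq2 1.42.0 (Wald test, with and without the low-count filter), limma 3.58.1 (voom, or log2 of TPM plus 1 or 0.1), DESeq2 size factors, no low-count filter, each library left out, and replicate blocks. Intervals and floors cover counting error only. Transcript lengths and overlaps came from GENCODE M21 (GRCm38), gene order and promoters from RefSeq GRCm38.p6. All 10 members are named; from other lists, the called genes or else up to 3 with the smallest p and a mean of at least 1 CPM, with exceptions stated in the text. Members and lists were chosen with earlier results of these data known. Sample numbers are those of the titles.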

Additional observations from a re-analysis of the deposited data

How the results depend on the processing

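No member was called higher or lower in 12 of 14 alternatives, the exceptions being DESeq2 without the low-count filter (3 higher) and DESeq2 on the filtered genes (2 higher), the latter added after the data were seen. The median log2 fold change of the members stayed positive in all 14, at 0.43 on log2(TPM + 1), 0.73 on log2(TPM + 0.1) and 1.20 to 1.68 with any 1 library left out; the medians of all genes on both TPM scales were -0.19 and -0.33. Wnt4 turned negative on log2(TPM + 1) (-0.23), on log2(TPM + 0.1) (-0.24), without PRC1 i2KO 1 (-0.081; up to 0.14 over the libraries left out) and with the replicate block by title (-0.083). Wnt3a turned negative with limma-voom (-0.46), on log2(TPM + 0.1) (-0.11), without PRC1 i2KO 2 (-0.20; up to 1.00 over the libraries left out) and with the block by description (-1.09). The cause of these turns was not tested.

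Over all genes, 28 were called higher and 0 lower, against 754 and 166 by DESeq2 without the low-count filter, 712 and 146 by DESeq2 on the filtered genes, 4 and 0 by limma-voom, 140 and 12 by edgeR without that filter, 2 and 1 on log2(TPM + 1), 7 and 5 on log2(TPM + 0.1), and 4 to 39 and 0 to 4 with a library left out. Titles number the controls 2 and 3 and descriptions number them 1 and 2, and nothing says that equal numbers mark a shared animal or day. A replicate block by title gave 140 genes higher and 25 lower and a member median of 1.24; a block by description, added after the data were seen, gave 10 and 0 and 1.29. Deviations of same-numbered samples by title correlated at 0.083 (number 2) and 0.054 (number 3). With 2 controls, the deviations of one mirror those of the other, and each correlation returns with the opposite sign. These values therefore cannot show whether equal numbers mark a shared animal or day. The 0 genes lower by edgeR stand beside 778 lower at an unadjusted p under 0.05. Depth limits Wnt3, Wnt3a, Wnt7a and Wnt16 most, with 0 to 5 counts in at least 1 library each.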
